A study of Mus musculus with 24 samples.

Results

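Transcripts of the skeletal muscle sarcomere, of its calcium store and of muscle energy metabolism were followed in RNA from macrophages sorted out of mouse dura mater and diaphragm. The set holds 34 genes of the 41388 in the deposited count table, chosen by name as proteins of contracting muscle: 13 isoforms typical of fast fibres, 6 typical of slow fibres, 9 sarcomere genes not assigned to 1 fibre type, 5 genes of energy or oxygen supply, and the calcium release channel Ryr1. The labels describe every sample as wild type, C57BL/6, 17 weeks old and steady state; the series as a whole is titled for mice without RAG-1 that were given T cells. Blood was flushed out through the heart before the dura was taken. The labels list 9 dural and 15 diaphragm samples, each tissue in 3 sorted subsets named C1, C2 and C3, but the column names give the tissue and not the subset. Each dural column joins 1 of the numbers 1, 3 and 4 to 1 of the marks P4, P5 and P6, so 1P4 is number 1 with mark P4, and diaphragm columns carry a number alone. What the marks stand for was not given in the sources used here.

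Skeletal muscle fibres contract when thin filaments of actin slide along thick filaments of myosin between the Z-discs of the sarcomere. Calcium released through Ryr1 binds troponin C, which lifts the hold of troponin I and lets tropomyosin shift across the thin filament so that myosin can bind, and the pump Atp2a1 returns the calcium to the store. Fast and slow fibres build the same machine from different gene copies, and the diaphragm, a muscle in constant use, holds both kinds. Macrophages are not known to assemble sarcomeres, and the dura is a connective tissue sheet with no muscle fibres of its own.

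The 16 libraries used were 9 from dura, with 10457920 to 24077834 counts, and 7 from diaphragm, with 11053351 to 30132295 counts. For 6 diaphragm numbers the library had been read in 2 runs, whose counts agreed within sampling noise, and these were summed. Diaphragm columns 4 and 5 held fewer than 10000 counts each, with 0 and 1 of them on the 34 genes, and were left out. The macrophage label fitted the data: 13 macrophage genes summed to 32626 to 38894 CPM (counts per 1000000 counts, scaled with TMM factors) in dura and 29170 to 39273 CPM in diaphragm. Nothing in the labels says whether libraries of 1 tissue came from separate mice, so p-values measure the spread between these libraries, which may be technical.

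The muscle transcripts were a small share of the diaphragm RNA and a far smaller one of the dural RNA. Summed over the 34 genes, the diaphragm libraries held 408 ± 106 CPM (SD, n = 7), with 507 CPM in number 1, 315 in 7, 410.1 in 2, 241 in 8, 495 in 3, 518 in 6 and 371 in 9. The dural libraries held 39.4 ± 9.41 CPM (SD, n = 9), from 28.6 CPM in 4P5 through a median of 36.5 CPM to 53.5 CPM in 4P4. Every diaphragm library thus lay above every dural library. The total was a level of RNA in bulk samples, in which fewer cells of a type and less RNA per cell cannot be told apart.

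**Figure D1:**
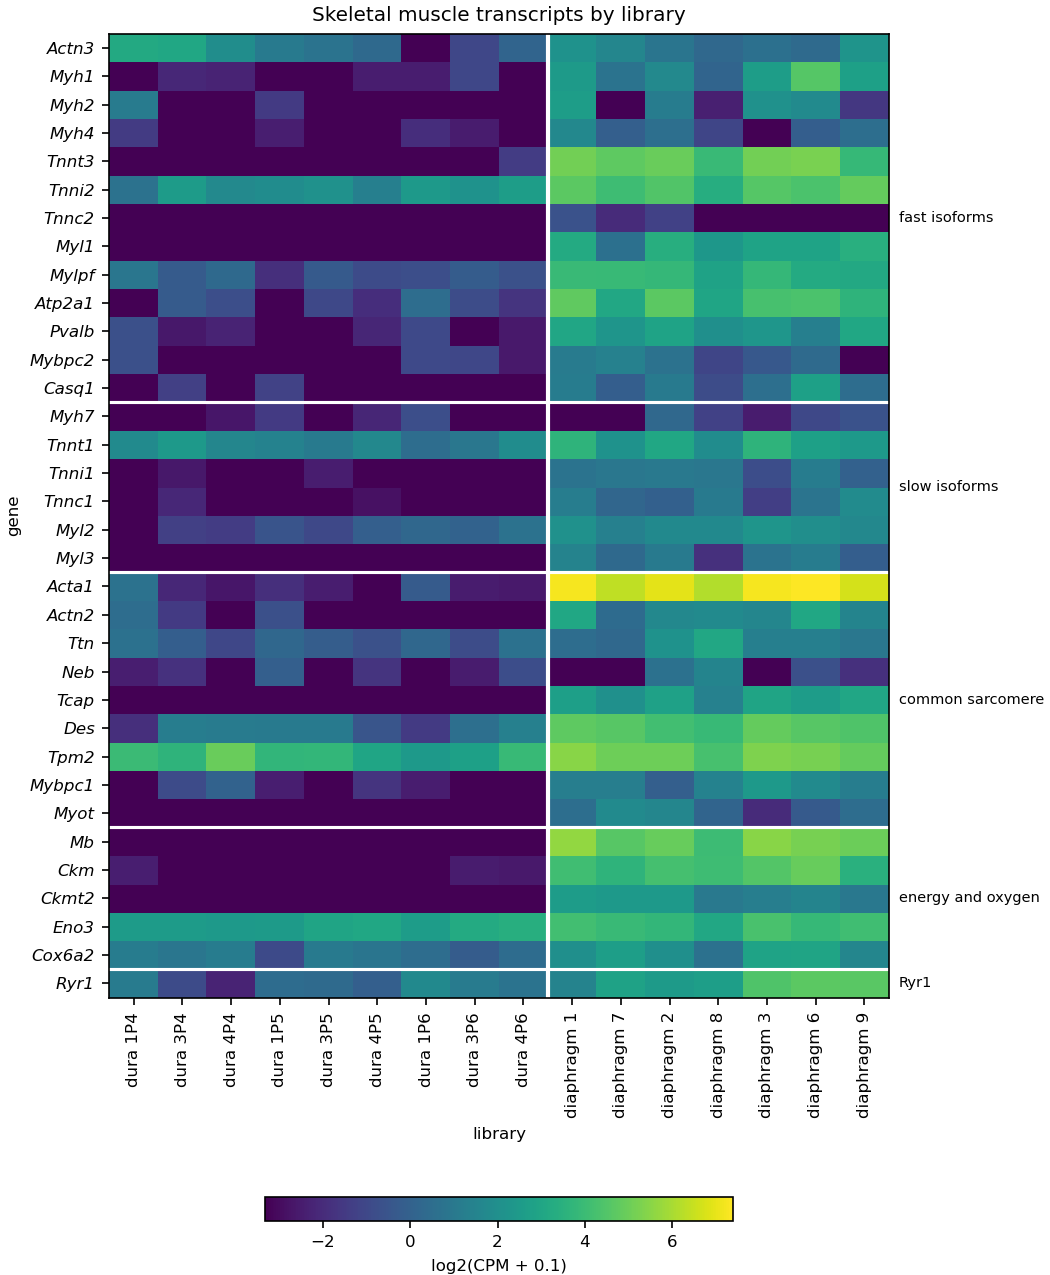
Level of each of the 34 genes (rows, grouped by role) in each of the 16 libraries (columns, dura left of the white line), as log2(CPM + 0.1) with a pseudocount of 0.1. The brightest row is Acta1 in diaphragm, with 70.7 to 168 CPM, while 7 genes are at the darkest colour in all 9 dural libraries because no read was counted there.

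Of the 34 genes, 23 passed the filter and were tested. Of these, 22 were lower in dura than in diaphragm by edgeR's quasi-likelihood test at an adjusted p under 0.05. Over all 13136 genes tested, 15.3% were called lower. None of the 34 was called higher in dura at an adjusted p under 0.05, at an unadjusted p under 0.05 or by DESeq2, beside 11.2% of all genes tested that were called higher. Actn3 was tested and not called, and 11 genes were too low for the filter. A gene that passed the filter through its diaphragm libraries alone had to differ, so the count is a description of the set. The same holds for the p-values of single genes with few dural counts. None is given for Mb, Myl1, Tcap and Ckmt2, which had no dural count. Nor is one given for Ckm, Tnnt3, Myh1 and Pvalb, which had 3, 4, 12 and 18 dural counts. Those given for Actn2, Mybpc1, Acta1 and Atp2a1, with 25 to 55 dural counts, stand under this limit. The mean was higher in diaphragm for 33 of the 34, including all 11 that were not tested. In 19 of the 34 every dural library lay below every diaphragm library, which held for 4.42% of the genes tested. The 19 include Casq1, Tnni1, Tnnc1, Myl3 and Myot, which were not tested. When the dural libraries of each number were added up, 813 genes of all those tested were called lower, against 2007 in the main fit. The number of genes tested in that fit is not given here. Its count of called muscle genes is therefore not set against a share. Tnnt1, Actn2, Ttn and Cox6a2 then lost their calls (edgeR adjusted p = 0.0903, 0.0579, 0.158 and 0.0841) at log2 fold changes of -1.37, -4.22, -1.80 and -1.65. Tnni1, Tnnc1, Casq1, Myl3 and Myot, not tested before, entered that fit and were called. They had 2, 3, 9, 0 and 0 dural counts and entered through diaphragm, so these calls add no evidence. The median log2 fold change, dura minus diaphragm, was -3.96 over the 23 tested and -0.01 over all genes tested.

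**Figure D2:**
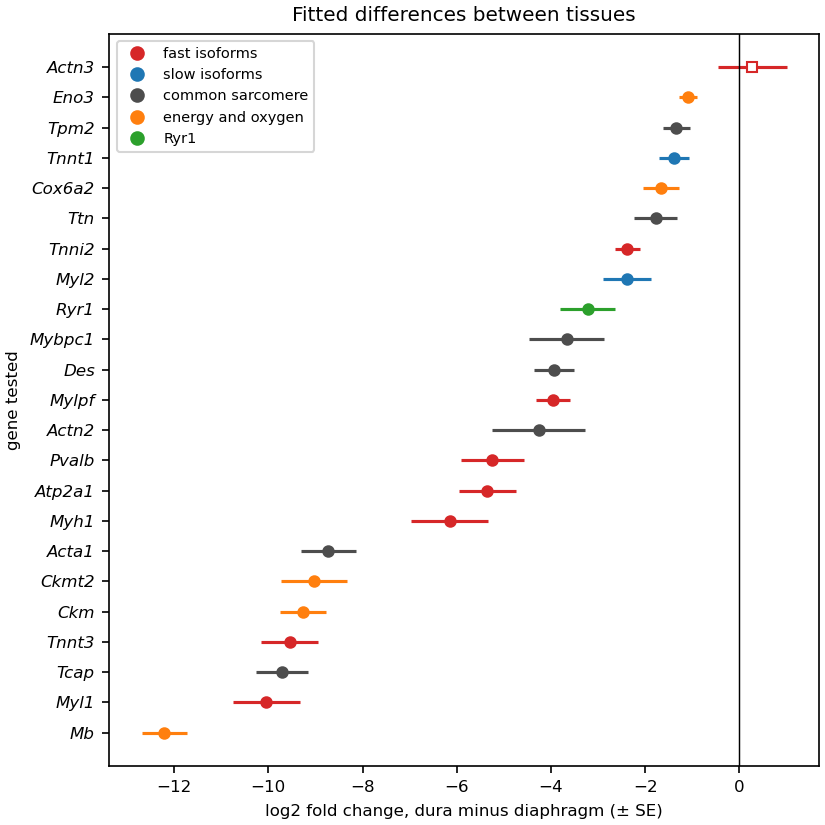
Fitted log2 fold change, dura minus diaphragm, with its standard error (SE), for the 23 genes that passed the filter, coloured by role. Filled circles passed the test and the open square, Actn3, did not; values for Mb, Myl1, Tcap and Ckmt2, which had no dural count, depend on the prior count of the fit and give no size.

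The regulatory sequence before a few of these genes is printed because the set was so unequal between tissues: Acta1 and Pvalb were nearly absent from dura, Des was low there, and Eno3 was the least changed of the genes called. Each line is the 250 bases before the RefSeq start on mouse GRCm38.p6, read 5′ to 3′ on the strand of the gene and free of GENCODE exons. Capitals mark matches, on either strand, to TATAAA, to the E-box CAGCTG (its own reverse complement), to the CArG box that serum response factor binds and to the MEF2 motif, both of the latter given by name.
Acta1, chr8:123894776-123895025, minus strand: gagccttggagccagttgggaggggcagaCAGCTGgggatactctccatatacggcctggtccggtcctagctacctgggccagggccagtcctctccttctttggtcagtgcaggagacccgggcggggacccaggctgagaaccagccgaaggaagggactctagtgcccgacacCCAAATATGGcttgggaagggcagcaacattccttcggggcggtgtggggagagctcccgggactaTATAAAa
Pvalb, chr15:78206401-78206650, minus strand: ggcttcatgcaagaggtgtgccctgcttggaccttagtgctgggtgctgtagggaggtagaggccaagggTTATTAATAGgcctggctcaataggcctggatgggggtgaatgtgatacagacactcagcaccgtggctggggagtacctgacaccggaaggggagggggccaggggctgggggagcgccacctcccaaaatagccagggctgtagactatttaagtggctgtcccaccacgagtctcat
Des, chr1:75360042-75360291, plus strand: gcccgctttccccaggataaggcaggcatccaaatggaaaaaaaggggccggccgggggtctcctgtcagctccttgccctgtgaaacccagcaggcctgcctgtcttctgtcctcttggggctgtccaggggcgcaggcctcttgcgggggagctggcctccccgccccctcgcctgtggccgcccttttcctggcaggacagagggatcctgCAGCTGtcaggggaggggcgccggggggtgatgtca
Eno3, chr11:70656926-70657175, plus strand: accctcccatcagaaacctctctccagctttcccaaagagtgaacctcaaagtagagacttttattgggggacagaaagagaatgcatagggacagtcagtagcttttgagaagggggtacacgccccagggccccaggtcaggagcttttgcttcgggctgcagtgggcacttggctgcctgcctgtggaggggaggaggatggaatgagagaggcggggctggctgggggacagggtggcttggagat
The Acta1 window holds CAGCTG from 221, a CArG box from 73 and TATAAA from 7 bases before the RefSeq start. GENCODE starts Acta1 at 123894751, downstream of that start, so the distances are longer from there. Pvalb holds a MEF2 motif from 180 bases before the start, Des holds CAGCTG from 36 bases before it, and these letters do not occur in the Eno3 window. Over the 27 genes with a RefSeq promoter entry, CAGCTG occurred in 48.1%, against 12.8% of 27025 promoters of the same length. The MEF2 motif occurred in 14.8% against 3.0%, the CArG box in 11.1% against 1.4%, and TATAAA in 22.2% against 13%; the A- and T-rich motifs can overlap one another. Of the 27 starts, 17 lay within 50 bases of the GENCODE gene start, and the others belong to other transcripts. These are matches of letters in a window, counted with no test.

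Thin filament genes spanned the whole range from near absence to a clear dural level. Acta1, the skeletal muscle actin (chromosome 8, 123891769 to 123894751, minus strand), had 0 to 1.56 CPM in dura with a median of 0.0793 CPM, and 70.7 to 168 CPM in diaphragm with a median of 123 CPM. The 2 groups did not overlap. Its mean was 0.322 ± 0.519 CPM (SD, n = 9) against 121 ± 37.3 CPM (SD, n = 7), a log2 fold change of -8.73 ± 0.58 (SE, edgeR adjusted p = 4.39e-08). Other actin genes are close to it in sequence, so reads they share are uncertain. Tpm2, beta-tropomyosin (chromosome 4, 43514711 to 43523765, minus strand), had 5.29 to 30.3 CPM in dura with a median of 13.2 CPM, and 19.2 to 45.1 CPM in diaphragm with a median of 32.6 CPM. The groups overlapped through dural library 4P4 alone, which at 30.3 CPM stood above diaphragm 8 and 9. Tpm2 was lower in dura by a log2 fold change of -1.34 ± 0.29 (SE, edgeR adjusted p = 0.0028). Tpm2 is also made by smooth muscle, and 12 genes of smooth muscle and pericytes summed to 503 CPM in 4P4, the highest of the 16 libraries, against 81.8 to 366 CPM in the other dural libraries and 35.5 to 194 CPM in diaphragm; their part in the Tpm2 level was not tested. Neb, the giant ruler of the thin filament, was not tested, with 0 to 0.847 CPM in dura (median 0.0869) and 0 to 2.74 CPM in diaphragm (median 0.183).

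The troponins split by subunit in the dura. Tnnt3, fast troponin T (chromosome 7, 142498836 to 142516009, plus strand), had 4 counts in dura, all in library 4P6, and 0 in the other 8 libraries. In diaphragm it ranged from 14.3 to 37.5 CPM with a median of 31.0 CPM. The fitted log2 fold change was -9.55, and -11.96 without 4P6, so its size rests on that 1 library. Tnnt1, slow troponin T, was present in every dural library, at 1.34 to 5.33 CPM with a median of 2.88 CPM. In diaphragm Tnnt1 had 3.61 to 12.5 CPM with a median of 6.62 CPM, so the tissues overlapped, and the log2 fold change was -1.39 ± 0.32 (SE, edgeR adjusted p = 0.00397). For troponin I, which holds the filament off, the fast gene was the one found in dura. Tnni2 (chromosome 7, 142441808 to 142444410, plus strand) had 1.56 to 6.05 CPM in dura with a median of 4.2 CPM, and 10.2 to 28.9 CPM in diaphragm with a median of 22.4 CPM, without overlap. Its log2 fold change was -2.38 ± 0.27 (SE, edgeR adjusted p = 8.1e-06). Slow Tnni1 had 2 counts over the 9 dural libraries, in 3P4 and 3P5, and 0.487 to 2.14 CPM in diaphragm with a median of 1.78 CPM, and was not tested.

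Troponin C, the calcium sensor, was low in both tissues. Slow and cardiac Tnnc1 had 3 counts over the dural libraries and 0.299 to 3.52 CPM in diaphragm, with a median of 1.63 CPM, without overlap. Fast Tnnc2 had no dural count and 23 counts in diaphragm, at 0.547 CPM in number 1, 0.148 CPM in number 7, 0.325 CPM in number 2 and 0 in the other 4 libraries. Pooled over libraries it was at least 6.81-fold higher in diaphragm, with 3 counts over the dural group as the floor. Of the exon bases of Tnnc2, 74.0% overlap Ube2c on the other strand, and reads from an unstranded kit that fall there cannot be told apart, so the level of Tnnc2 is uncertain.

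**Figure D3:**
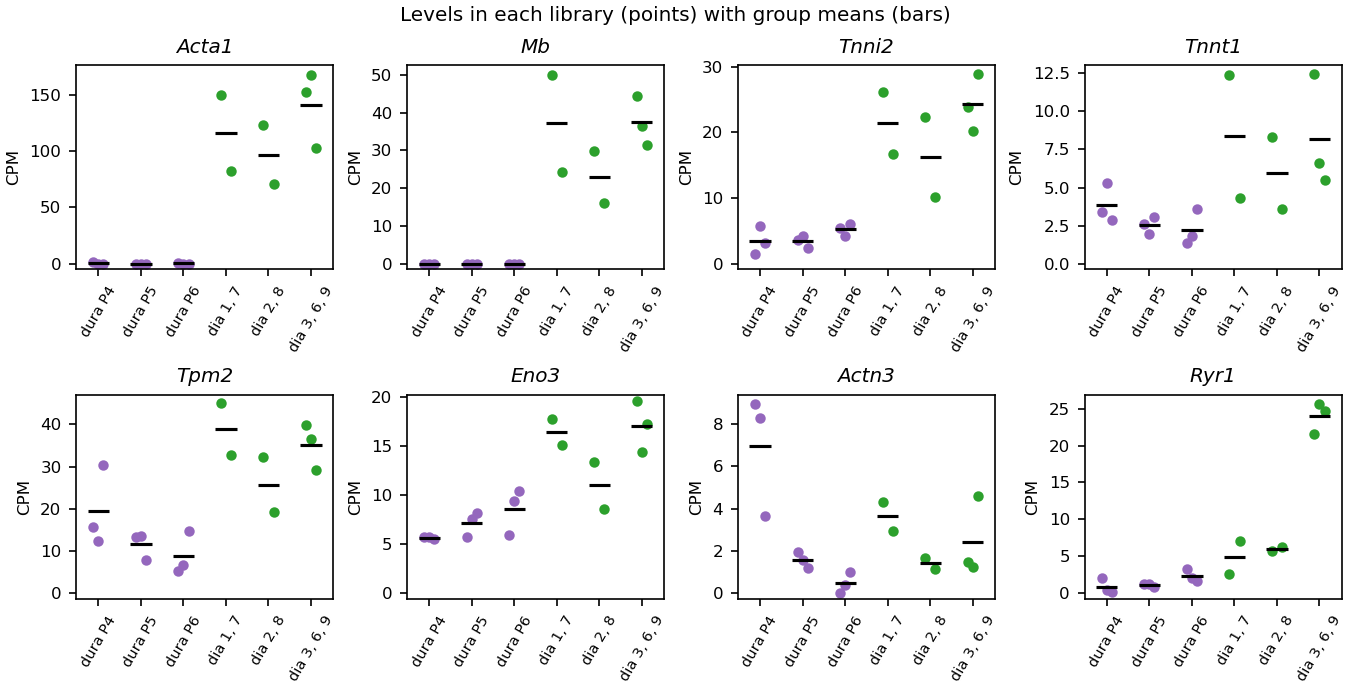
CPM of 8 genes in each library (points), with the mean of each group as a bar, for the dural marks P4, P5 and P6 and for the diaphragm numbers 1 and 7, 2 and 8, and 3, 6 and 9. Acta1 and Mb lie at or near 0 in dura, Tnni2, Tnnt1, Tpm2 and Eno3 have a dural level, Actn3 is highest in P4, and Ryr1 is highest in diaphragm 3, 6 and 9.

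Myosin heavy chains, the motors of the thick filament, had few reads even in diaphragm. Myh1 (IIx fibres) had 1.01 to 23.6 CPM there with a median of 5.56 CPM, and 0 to 0.39 CPM in dura with a median of 0.0816 CPM. The highest value was diaphragm 6, and the tissues did not overlap. The fitted log2 fold change of -6.15 rests on 12 dural counts. Myh2 (IIa fibres) had 0 CPM in diaphragm 7 and 6.1 CPM in diaphragm 1, with a median of 2.14 CPM. In dura 7 of 9 libraries had no Myh2 count and 1P4 had 2.09 CPM from 24 counts. Myh4 (IIb fibres) had 0 to 3.1 CPM in diaphragm with a median of 0.849 CPM and 0 to 0.261 CPM in dura with a median of 0. Slow Myh7 had 0 CPM in diaphragm 1 and 7, up to 1.11 CPM in diaphragm 2 with a median of 0.32 CPM, and 0 to 0.503 CPM in dura with a median of 0. Myh2, Myh4 and Myh7 were not tested. Myh2, Myh1 and Myh4 stand side by side on chromosome 11, from 67171027 to 67260446, and are close in sequence, so the split of reads among them is uncertain, and 13.3% of the exon bases of Myh7 overlap antisense genes.

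Myosin light chains, which stiffen and tune the myosin neck, separated the tissues more cleanly. Fast Myl1 had 1.44 CPM in diaphragm 7, up to 10.7 CPM in diaphragm 9 with a median of 7.43 CPM, and no count in any dural library, and was at least 320.1-fold higher in diaphragm. Its slow partner Myl3 had 0.183 CPM in diaphragm 8 to 2.69 CPM in diaphragm 1 with a median of 1.57 CPM and also no dural count, at least 65.1-fold higher, and was not tested. Fast Mylpf had a low level in every dural library, 0.169 to 1.74 CPM with a median of 0.714 CPM, against 7.09 to 15.4 CPM in diaphragm with a median of 13.8 CPM. Its log2 fold change was -3.96 ± 0.36 (SE, edgeR adjusted p = 7.74e-07). Slow Myl2 had 0 to 1.55 CPM in dura with a median of 0.593 CPM and 2.44 to 4.68 CPM in diaphragm with a median of 3.34 CPM. The tissues did not overlap, with a log2 fold change of -2.39 ± 0.51 (SE, edgeR adjusted p = 0.00239).

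Among the other thick filament proteins, Ttn, the titin spring, was in every library, at 0.388 to 1.48 CPM in dura and 1.15 to 8.41 CPM in diaphragm. Its highest values were diaphragm 8 and 2, and it was lower in dura by a log2 fold change of -1.78 ± 0.45 (SE, edgeR adjusted p = 0.00781). Without diaphragm 2 and 8 the fold change was -0.98 with an adjusted p of 0.0976, and the call was lost. The same 2 libraries also had the highest Neb levels, 1.49 CPM in number 2 and 2.74 CPM in number 8, although number 8 had the lowest, or tied lowest, level of 16 of the 34 genes. Mybpc1, slow myosin-binding protein C, had 0.835 to 5.28 CPM in diaphragm and 0 to 0.943 CPM in dura (edgeR adjusted p = 0.00282). It was placed among the genes not assigned to 1 fibre type. Its 411 diaphragm and 31 dural counts are therefore not in the slow sums, while Mybpc2 is in the fast sums. Fast Mybpc2 was not tested, with 0 to 2.51 CPM in diaphragm (median 1.22) and 0 to 0.522 CPM in dura (median 0).

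Z-disc genes fell into those absent from dura and those present. Tcap, which caps titin at the Z-disc, had 2.51 to 7.91 CPM in diaphragm and no dural count, at least 262.1-fold higher in diaphragm. Myot, an actin cross-linker, had 0.15 to 3.4 CPM in diaphragm with a median of 1.33 CPM and no dural count, at least 73.1-fold higher, and was not tested. Des, the desmin filament that ties sarcomeres together, had 0.174 to 2.42 CPM in dura with a median of 1.95 CPM and 14.9 to 29.2 CPM in diaphragm with a median of 23.97 CPM. Its tissues did not overlap, and the log2 fold change was -3.94 ± 0.42 (SE, edgeR adjusted p = 4.76e-06). Actn2, the common sarcomeric alpha-actinin, had 1.26 to 8.34 CPM in diaphragm and no count in 6 of 9 dural libraries. Dural library 1P4 reached 1.3 CPM, above diaphragm 7, and the log2 fold change was -4.26 ± 0.99 (SE, edgeR adjusted p = 0.00416).

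Actn3, the fast-fibre alpha-actinin, was the exception of the set. In dura it had 8.95, 8.28 and 3.66 CPM in 1P4, 3P4 and 4P4, then 1.95, 1.59 and 1.18 CPM in 1P5, 3P5 and 4P5, and 0, 0.39 and 1.01 CPM in 1P6, 3P6 and 4P6. In diaphragm it had 4.33 CPM in number 1, 2.96 in 7, 1.67 in 2, 1.14 in 8, 1.46 in 3, 1.22 in 6 and 4.57 in 9. The dural P4 libraries were thus the highest or among the highest, and the tissues overlapped. The log2 fold change between tissues was 0.27 ± 0.73 (SE, edgeR adjusted p = 0.823), and its sign turned to -1.27 (adjusted p = 0.224) without the P4 libraries. It also turned without 1P4 (-0.14) or 3P4 (-0.09). Within dura, Actn3 was lower in P6 than in P4 by a log2 fold change of -3.81 ± 0.78 (SE, edgeR adjusted p = 0.00255). The call was lost without number 3 (-3.55, adjusted p = 0.0645). The P4 libraries also had the highest dural fibroblast levels. There 12 fibroblast genes summed to 2576 to 4512 CPM, against 743 to 1205 CPM in the P5 and P6 libraries. In diaphragm these genes summed to 21360 and 10720 CPM in numbers 1 and 7. They summed to 994.5 CPM in number 9, where Actn3 was highest in diaphragm. The part of fibroblasts in the Actn3 level was not tested.

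Genes that store and move energy and oxygen gave the sharpest contrast and also the weakest. Mb, the oxygen store myoglobin (chromosome 15, 77015487 to 77050670, minus strand), had no count in 9 dural libraries and 16.1 to 50.01 CPM in diaphragm with a median of 31.4 CPM. It was at least 1475-fold higher in diaphragm. Exon bases shared with neighbouring genes on the other strand made up 31.9% of Mb. Ckm, the cytosolic muscle creatine kinase that buffers ATP (chromosome 7, 19404776 to 19422841, plus strand), had 3 counts in all of dura, 1 each in 1P4, 3P6 and 4P6. In diaphragm Ckm had 11.1 to 30.2 CPM with a median of 17.0 CPM. Its fitted log2 fold change of -9.27 rests on those 3 dural counts. Of the exon bases of Ckm, 15.5% overlap an antisense gene. Its mitochondrial partner Ckmt2 had no dural count and 1.87 to 6.01 CPM in diaphragm, at least 167.9-fold higher.

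Eno3, the muscle form of the glycolytic enzyme enolase, had a steady dural level. It ranged from 5.49 to 10.4 CPM in dura with a median of 5.96 CPM, and from 8.6 to 19.6 CPM in diaphragm with a median of 15.1 CPM. Dural libraries 3P6 and 4P6 overlapped diaphragm 8. The log2 fold change of -1.09 ± 0.19 (SE, edgeR adjusted p = 0.000476) was the smallest of the 22 calls. Cox6a2, a muscle subunit of cytochrome c oxidase, had 0.424 to 2.17 CPM in dura and 1.51 to 7.53 CPM in diaphragm, with a log2 fold change of -1.66 ± 0.38 (SE, edgeR adjusted p = 0.0036). Of its exon bases, 10.3% overlap Itgad, an integrin gene of leukocytes, on the other strand.

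Of the genes that handle calcium, Atp2a1, the fast-fibre pump SERCA1 (chromosome 7, 126445858 to 126463108, minus strand), had 0 to 1.34 CPM in dura with a median of 0.396 CPM and 7.86 to 27.3 CPM in diaphragm with a median of 19.4 CPM. The tissues did not overlap, and the log2 fold change was -5.35 ± 0.6 (SE, edgeR adjusted p = 7.01e-06). Of its exon bases, 21.9% overlap Rabep2 on the other strand. Pvalb, the calcium buffer parvalbumin, had 2.34 to 8.23 CPM in diaphragm and 0 to 0.522 CPM in dura, there from 18 counts. Casq1, the calcium binder of the store, had 0.457 to 6.62 CPM in diaphragm with a median of 1.42 CPM and 9 counts in dura, in 3P4 and 1P5, and was not tested.

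Ryr1 did not follow the order of the summed set among the diaphragm libraries. It had 2.64 CPM in number 1, 7.02 in 7, 5.66 in 2, 6.26 in 8, 21.5 in 3, 25.7 in 6 and 24.7 in 9, and 0.111 to 3.27 CPM in dura with a median of 1.27 CPM. The 3 libraries 3, 6 and 9 stood apart above the other 4, while diaphragm 1, which had the highest level of 10 of the 34 genes, had the lowest Ryr1. Over both tissues the log2 fold change was -3.22 ± 0.58 (SE, edgeR adjusted p = 0.00062). The same 3 libraries had the highest levels of 9 dendritic cell genes, summing to 689 to 918 CPM against 142 to 184 CPM in the other diaphragm libraries and 98.6 to 163 CPM in dura. The part of those cells in the Ryr1 level was not tested.

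Summed over 13 fast and 6 slow genes, fast isoforms had more counts than slow ones in every library, with a higher share in diaphragm. Of the counts on these genes, the fast share was 82.5% to 88.9% in the diaphragm libraries with a median of 87.2%, and 51.7% to 82.2% in the dural libraries with a median of 73.1%. The ranges met without overlapping: dural 1P4 had 82.2% (95% Clopper-Pearson interval 76.5% to 87.0%) and diaphragm 8 had 82.5% (80.4% to 84.4%). These intervals cover counting error only, since the reads carry no molecular identifiers and may repeat a molecule. With counts divided by exon length the medians were 88.0% in diaphragm and 75.8% in dura. In 1P4, Actn3 alone gave 103 of the 180 fast counts, and over dura Tnni2 and Actn3 gave 925 of 1173. Over the matched pairs alone the share was 41.5% to 67.9% in dura, with more slow than fast counts in 4P5 (71 fast, 100 slow), and 77.7% to 85.9% in diaphragm. Without Tnni2 and Tnnt1, an alternative added after the values were seen, the tissues overlapped: the dural P4 libraries had 94.3% to 100% and the other dural libraries 58.2% to 85%, against 84.9% to 93% in diaphragm. In the fast class 8 of 13 genes were tested, 7 were called lower in dura and 8 of 13 had no overlap. In the slow class 2 of 6 were tested, 2 were called lower and 4 of 6 had no overlap. The counts without overlap include genes that were not tested. Of all genes tested, 15.3% were called lower in dura and 4.42% lay lower there without overlap.

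The matched pairs differed between the tissues in both directions. Pooled over libraries, Tnnt3 made up 77.9% of the counts on Tnnt3 and Tnnt1 in diaphragm (76.7% to 79.0%) and 1.0% in dura (0.3% to 2.5%), with 4 counts against 399. For troponin I the order was the other way, with Tnni2 at 93.6% of Tnni2 and Tnni1 in diaphragm (92.7% to 94.4%) and 99.6% in dura (98.7% to 100%). By library the Tnni2 share was 85.1% to 98.0% in diaphragm and 98.1% to 100% in dura, so the ranges nearly met. Mylpf made up 77.7% of Mylpf and Myl2 in diaphragm and 52.1% in dura (44.8% to 59.4%). Within dura the Mylpf share was 100% in 1P4, 80.8% in 4P4 and 70.6% in 3P4, and it was between 22.2% and 64.3% in the P5 and P6 libraries. Myl1 made up 83.1% of Myl1 and Myl3 in diaphragm, from 54.9% in number 7 to 96.4% in number 8, and neither gene had a dural count. The fast heavy chains made up 96.4% of the counts on Myh1, Myh2, Myh4 and Myh7 in diaphragm, with 82.1% in number 8 and 85.8% in number 2 the lowest, and 78.0% of 59 dural counts (65.3% to 87.7%). Tnnc2 was the reverse of the other pairs in diaphragm, at 8.7% of Tnnc2 and Tnnc1, with the overlap with Ube2c noted above.

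**Figure D4:**
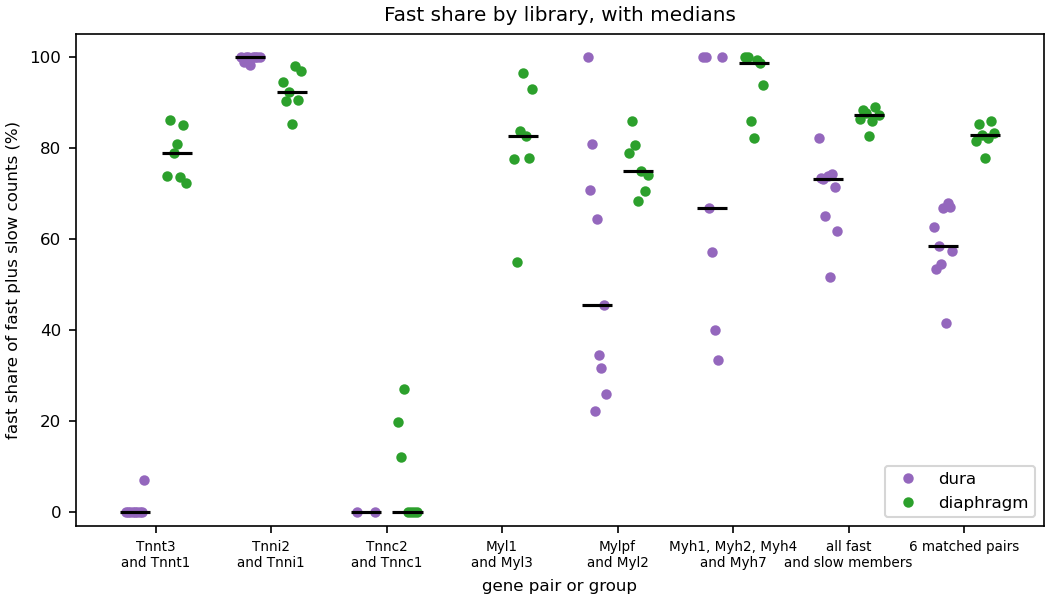
Percentage of fast-isoform counts among fast plus slow counts in each library that had any, for 6 matched pairs or groups, for all 19 fast and slow genes and for the 6 pairs together, with the median as a bar. Tnnt3 and Tnnt1 separate the tissues most, at 72.3% to 86.0% in diaphragm and 0% in 8 of 9 dural libraries, while Tnni2 and Tnni1 lie above 85% in both.

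Per length, which allows levels of different genes to be compared, Acta1 led the diaphragm at 79.0 ± 24.3 CPM per kb of exons (SD, n = 7), and its lowest library, at 46.04 CPM per kb, was above the highest of any other gene. Mb followed at 22.3 ± 7.75 CPM per kb, Tnnt3 at 17.5 ± 6.01, Tnni2 at 14.2 ± 4.17, Tpm2 at 11.5 ± 2.83 and Mylpf at 11.2 ± 3.2 CPM per kb, and from Mb on neighbours in this order differed by less than their spread. Tnnc2 at 0.182, Myh7 at 0.0409, Ttn at 0.0266 and Neb at 0.0264 CPM per kb closed the order. In dura the order was another one: Tpm2 led at 4.56 ± 2.53 CPM per kb (SD, n = 9), then Eno3 at 4.1 ± 1.06, Tnni2 at 2.71 ± 1.03, Cox6a2 at 2.22 ± 0.896, Tnnt1 at 1.31 ± 0.536 and Actn3 at 1.03 ± 1.16 CPM per kb. Acta1, first in diaphragm, was at 0.209 ± 0.338 CPM per kb in dura.

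**Figure D5:**
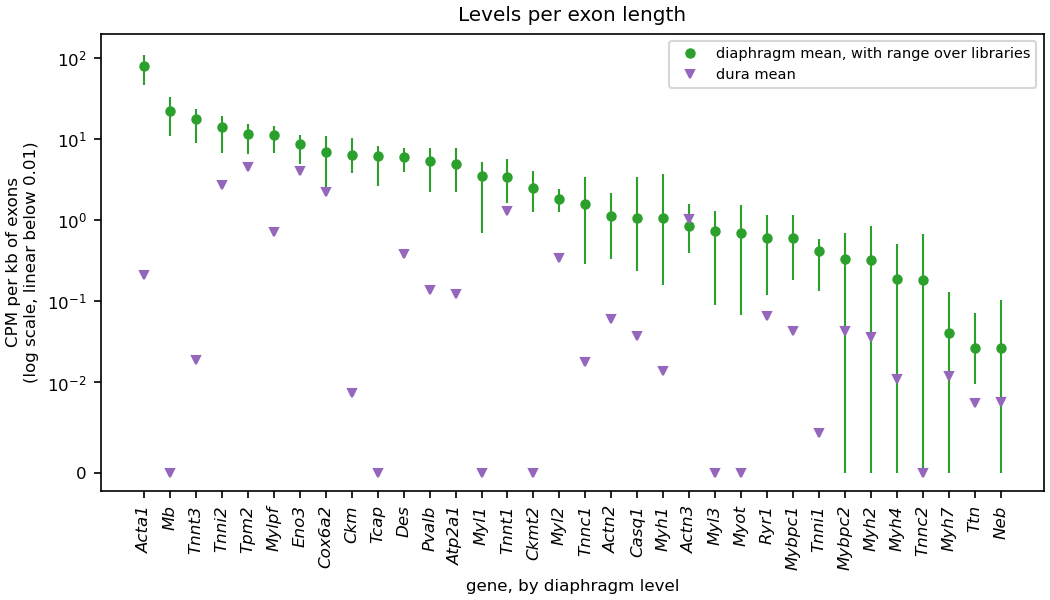
Mean level per kb of exons of each gene in diaphragm (circles, with the range over 7 libraries) and dura (triangles, mean of 9 libraries), in order of the diaphragm level; the axis is logarithmic above 0.01 and linear below it. The tissues are closest for Actn3, Eno3, Tpm2, Tnnt1 and Cox6a2, and the dural mean is 0 for 7 genes.

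Among the dural marks, 11 of the 34 genes could be tested. Between P5 and P4 no gene of the set was called by edgeR, beside 7.35% of 13239 genes in either direction; Actn3 alone had an unadjusted p under 0.05 and was called by DESeq2. Between P6 and P5 none was called by edgeR or DESeq2 or had an unadjusted p under 0.05, beside 17.4% of all genes. From P4 to P6, Actn3 was called lower, beside 17.3% of all genes called lower, and none was called higher, beside 16.0%. Of the 11, 4 had an unadjusted p under 0.05 in that comparison, namely Actn3 and Tpm2, lower in P6, and Eno3 and Myl2, higher in P6. Tpm2 had 15.6, 12.3 and 30.3 CPM in P4 and 5.29, 6.63 and 14.7 CPM in P6 (edgeR adjusted p = 0.0577). Myl2 had 0, 0.314 and 0.277 CPM in P4 and 1.09, 0.936 and 1.55 CPM in P6, without overlap (edgeR adjusted p = 0.0526). DESeq2 called both, with an adjusted p of 0.0195 for Tpm2 and 0.0247 for Myl2. Summed over the set the P4 libraries had 49.3, 46.2 and 53.5 CPM, above all P5 and P6 libraries, which had 28.6 to 45.8 CPM. Without Acta1, Tpm2 and Mb the P4 libraries had 32.2, 33.8 and 23.2 CPM against 20.7 to 31.1 CPM, and no longer lay apart. The fibroblast genes, at 2576 to 4512 CPM, and the smooth muscle and pericyte genes, at 225 to 503 CPM, also had their highest means in P4, and their part in the sum was not tested.

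Within the diaphragm the summed set differed by library. Number 6 had the highest sum, at 518 CPM, and the highest level of 8 genes, and number 1 followed with 507 CPM and the highest level of 10 genes. Number 8 had the lowest sum, at 241 CPM. Its separate runs gave 228 and 229 CPM by library totals, and those of number 1 gave 524 and 522 CPM, so the spread was between libraries and not between runs. Acta1 ranged from 70.7 CPM in number 8 to 168 CPM in number 6, and Mb from 16.1 CPM in number 8 to 50.01 CPM in number 1. Casq1 and Myh1 stood apart in number 6, at 6.62 and 23.6 CPM. The number pairs 1 and 7 and 2 and 8 did not share a level: 507 CPM stood beside 315 CPM, and 410.1 CPM beside 241 CPM.

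Muscle genes outside the set held both broadly expressed and muscle-restricted genes. Of 43 further sarcomere genes 17 were tested, 8 were lower in dura and 1, Myom1, was higher, at 29.8 ± 4.66 CPM in dura against 12.1 ± 3.48 CPM in diaphragm (edgeR adjusted p = 3.03e-05). Myom1 encodes myomesin of the M-band, and stood out from the set in its direction. Myoz2 and Ldb3 of the Z-disc were lower by log2 fold changes of -6.86 (edgeR adjusted p = 1.14e-06) and -3.36 (edgeR adjusted p = 0.00306), and Klhl41, not tested, had 14 dural and 372 diaphragm counts. Among the most abundant were Tpm3 (log2 fold change -0.31, edgeR adjusted p = 0.0166), Tpm1 (-0.24, edgeR adjusted p = 0.232), and Cryab (-0.41, edgeR adjusted p = 0.471), all made in many cell types. Of 24 further calcium and triad genes 9 were tested, 3 were lower in dura and 0 higher. Cacna1s, the voltage sensor of the triad, had 19 dural and 444 diaphragm counts, and Sln, not tested, had 0 and 247. Atp2a2, the pump SERCA2 of most cells, was at 177 ± 19.6 CPM in dura and 232 ± 27.6 CPM in diaphragm (log2 fold change -0.39, edgeR adjusted p = 0.00384). Fkbp1a was also lower (-0.42, edgeR adjusted p = 0.0195), and Asph (0.38, edgeR adjusted p = 0.203) and Cacnb1 (-0.19, edgeR adjusted p = 0.688) were not called. Of 24 further energy genes 17 were tested and 8 were lower in dura and 0 higher, with glycolytic Ldha at -0.89 (edgeR adjusted p = 7.61e-05), Pkm at -0.64 (edgeR adjusted p = 0.00273) and Aldoa at -0.39 (edgeR adjusted p = 0.00295), and Ckb, the creatine kinase of non-muscle cells, at -0.18 (edgeR adjusted p = 0.558). Cox8b, not tested, had 8 dural and 438 diaphragm counts. Untested genes of these lists with more dural than diaphragm counts were Ckmt1 (71 and 11), Ucp3 (18 and 2), Myh6 (20 and 4), Myh7b (14 and 2) and Myh13 (9 and 5). Over all genes tested, 15.3% were called lower and 11.2% higher in dura. The median log2 fold changes over the genes tested were -0.60, -0.39 and -0.40 in these 3 lists, against -0.01 over all genes, and no difference between these lists and the 34 genes was tested.

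Markers of satellite cells and of the myogenic lineage had reads in diaphragm and almost none in dura, all too low to be tested. Pax7 of satellite cells had 0 dural and 177 diaphragm counts, Myod1 had 0 and 123, Cdh15 had 1 and 120, Myf6 had 0 and 26, and Mstn had 0 and 22. Of 17 regulators, 6 were tested, with Mef2d lower in dura (log2 fold change -0.24, edgeR adjusted p = 0.04) and Mef2c higher (0.94, edgeR adjusted p = 6.66e-06), while Mef2a (0.05, edgeR adjusted p = 0.648) and Fbxo32 (-0.65, edgeR adjusted p = 0.217) were not called. The MEF2 factors are also made in macrophages. Of 9 heart genes, 1 was tested and 0 were called by edgeR; the list summed to 1.02 to 3.39 CPM in dura and 0.914 to 8.94 CPM in diaphragm, with Tnni3 at 0.826 ± 0.518 and 0.783 ± 1.33 CPM and Mybpc3 at 0.442 ± 0.439 and 0.907 ± 0.746 CPM.

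Fibroblast and endothelial markers did not share the order of the muscle sum across the diaphragm libraries. The 12 fibroblast genes summed to 21360 CPM in number 1 and 10720 CPM in number 7, against 904 to 1559 CPM in the other 5, and the 12 endothelial genes to 1899 and 1893 CPM in numbers 1 and 7 against 55.9 to 608 CPM. Numbers 3 and 6, with less of either, had muscle sums of 495 and 518 CPM. Between tissues, 5 of the 12 fibroblast and 7 of the 12 endothelial genes were called lower in dura and 0 higher. Of all genes tested, 15.3% were called lower and 11.2% higher. Alb, the liver's secreted albumin, had 182 to 536 CPM in diaphragm and 0 to 0.261 CPM in dura, from 4 dural counts. Of 12 liver genes, 9 were lower in dura and 1, Ttr, was higher. Of 10 adipocyte genes 3 were lower in dura, led by Car3 at 1.22 ± 0.727 CPM in dura and 15.1 ± 5.8 CPM in diaphragm; Car3 is also a gene of slow muscle fibres. Genes of smooth muscle, red cells, Schwann cells and neutrophils had 2, 3, 2 and 1 members higher in dura and 0 lower. Of 9 mesothelial genes 0 were tested, and the list summed to 0.605 to 6.96 CPM in dura and 0.407 to 47.5 CPM in diaphragm. The part of these cells in the muscle transcripts was not tested.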

How the data were processed

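Per the labels' protocols, RNA of macrophages sorted in bulk was sequenced with an unstranded kit and single-end reads of 75 bases. DESeq2 1.20.0, STAR 2.4.0j, featureCounts and GRCm38 are named, in no stated order, in the submitters' processing notes. The table deposited by the authors holds whole-number counts per gene; it is called normalised, but its column totals differ, and it was read as raw counts. Depths ranged from 10457920 to 30132295 counts per library, so 1 count is well below 1 CPM.

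Columns were grouped by tissue, since no column name matches a subset label. Repeat columns were summed because 6 pairs had a chi-square per degree of freedom of 1.008 to 1.169, against at least 10.56 in 108 other pairs. Genes passing filterByExpr were tested two-sided with edgeR 4.0.16 (R 4.3.3) quasi-likelihood fits, TMM factors and Benjamini-Hochberg adjustment at 0.05, dura against diaphragm, and among dural marks in a fit of the 9 dural libraries. The script was tested on simulated data. CPM used TMM-scaled library sizes and exon lengths came from GENCODE M21. A gene with no dural count was given a floor of 3 counts over dura. Alternatives used DESeq2 1.42.0, limma-voom (limma 3.58.1), other scalings and filters, and libraries left out.

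The 34 genes and all marker lists were chosen with earlier results of these data known. All 34 are accounted for, with per-library ranges for the fast and slow pairs, the 8 highest in diaphragm and the genes not called; of other lists the most abundant 4 (muscle) or 2 (other cells) were to be named, and Myoz2, Ldb3, Klhl41, Cacna1s, Sln, Cox8b, Pax7, Myod1, Cdh15, Myf6 and Mstn were named after their values were seen. Ckmt1, Ucp3, Myh6, Myh7b and Myh13 were also named after their values were seen. The dendritic cell list was added after the Ryr1 values were seen. Coordinates are from GENCODE M21 on GRCm38.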

Additional observations from a re-analysis of the deposited data

Results flagged for a closer look

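In 11 of 63 groups of libraries 1 library stood apart from the others of its tissue by Dixon's criterion at the 95% level, where chance flags about 1 in 20 groups. Many of these rest on few counts, and the criterion also responds where most libraries are at 0.

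In diaphragm, number 6 stood apart for Myh1, at 23.62 CPM from 232 counts with the next library at 6.63 CPM, and for Casq1, at 6.617 CPM from 65 counts with the next at 2.14 CPM. In dura, 1P4 stood apart for Acta1 at 1.564 CPM from 18 counts, for Actn2 at 1.304 CPM from 15 counts and for Myh2 at 2.086 CPM from 24 counts, all sarcomere genes. Library 4P4 stood apart for Tpm2 at 30.28 CPM from 546 counts and for Mybpc1 at 0.9429 CPM from 17 counts. The other 4 rested on 2 to 6 counts: Myh1 at 0.39 CPM in 3P6, Tnnt3 at 0.2691 CPM in 4P6, Myh7 at 0.5033 CPM in 1P6 and Tnnc1 at 0.1254 CPM in 3P4. The causes were not tested.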

How the results depend on the processing

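Among refits of single genes, 741 kept direction and side of the threshold, 9 lost a call while still tested and 5 reversed. All 5 reversals were Actn3 between tissues, which was never called: -0.61 with limma-voom, -0.60 with the dural number as a random replicate block, -1.27 without P4, and -0.14 and -0.09 without 1P4 or 3P4, the lowest with 1 library left out, against 0.49 without diaphragm 9. The lost calls between tissues were Tnnt1, Actn2, Ttn and Cox6a2 with dura summed per number, Ttn and Ryr1 under the random replicate block (adjusted p = 0.0719 and 0.0542), and Ttn without diaphragm 2 and 8 or without P5; the other was Actn3, P6 against P4, without number 3.

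The 22 genes called lower became 12 with the near-empty diaphragm columns 4 and 5 included, because the other 10 no longer passed the filter and were not tested, and stayed at 22 to 24 with any 1 library left out. Genes called between tissues numbered 3472, 1259 with dura summed per number, 2143 without P5, and 2969 to 3585 with 1 library left out. Of the calls, 42.2% were higher in dura with TMM (1465 against 2007 lower), 54.3% with upper-quartile factors (2008 against 1688) and 61.0% with library totals (2350 against 1501), which moved the median of all genes by 0.14.

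Same-numbered dural libraries deviated together little (9 correlations from -0.00482 to 0.171, against -0.176 to 0.132 for 18 pairs of other numbers), although 8 of 9 libraries correlated best with one of their own number. With the replicate block, genes called between P5 and P4 rose from 973 to 1576, and called muscle genes between P6 and P4 from 1 to 2, the second being Tpm2 (-1.13, adjusted p = 0.0345). Without a filter P5 against P4 called 1587 genes and 2 of the muscle genes, and DESeq2 called 1 of them; for P6 against P4 library totals called 2, no filter 3 and DESeq2 3. Leaving out 1 number gave 285 to 875 genes for P5 against P4, 821 to 2312 for P6 against P5 with 0 to 1 muscle genes, and 2372 to 4560 for P6 against P4 with 0 to 3, in each case lowest without number 3.

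The median fast share was 73.1% in dura and 87.2% in diaphragm, 59.29% and 84.97% without Actn3, Casq1 and genes sharing at least 10% of exon bases, and 58.27% and 82.8% over the matched pairs. Without Tnni2 and Tnnt1, an alternative chosen after seeing the data, the medians were 76.74% in dura and 91.56% in diaphragm. Without the 3 highest genes the summed levels were 25.85 CPM in dura and 220 CPM in diaphragm.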
